A study of Mus musculus with 8 samples.

Results

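The comparison set 6mA peak lists of embryo brains with neural tube defects (NTD) against those of normal embryo brains (CON). N6-methyladenine (6mA), a methyl group on the adenine base of DNA, was captured with an antibody from sheared mouse DNA (MeDIP), sequenced, and called as peaks against input DNA that had not been immunoprecipitated. NTD embryos came from dams on a low-folate diet injected intraperitoneally with methotrexate at 1.5 mg/kg on gestational day 7.5, and they showed mainly hindbrain malformation and spina bifida with delayed growth. CON embryos had closed neural tubes and are recorded as treated with normal saline; the diet of their dams is not stated. Closure was watched from embryonic day 9.5 to 10.5. Each group had 3 lists (NTD1 to NTD3 and CON1 to CON3), all called against input number 1 of the group, so the lists of a group share their input. The members were all peaks on autosomes 1 to 19 with at least 7 tags, where a tag is a read counted in the peak. This kept 26696 peaks in the 6 lists, out of 31913 brain peaks and 90798 peaks in the 8 lists of the series, whose other lists came from cultured embryonic stem cells. The list was the unit. With 3 lists against 3 there are 20 assignments, the smallest two-sided exact permutation p is 0.1, and no comparison could reach 0.05. Each group has 1 immunoprecipitation record, which describes 3 repeats, and the labels do not say whether these come from separate embryos. The SDs and p-values therefore measure only the spread between lists of 1 record, which may be technical. Defect, methotrexate and diet cannot be told apart in this design, and peak lists hold no expression values by which to check that the tissue is brain.

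Adenine methylation is common in bacteria, where it marks the cell's own DNA against restriction enzymes and guides mismatch repair. In mammalian DNA it is rare, and how much of it is present has been debated. Methotrexate blocks dihydrofolate reductase, which keeps folate in the form that carries single carbon units for thymidine and purine synthesis, and folate also feeds the methyl donor S-adenosylmethionine. The neural tube closes as the neural plate bends and its edges fuse, which needs planar cell polarity, cell division and neural crest formation to run in step.

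NTD lists held 4616, 4447 and 5605 autosomal peaks, against 2759, 5340 and 3929 in CON lists. The groups overlapped, with means of 4889 ± 626 in NTD and 4009 ± 1292 in CON (mean ± SD, 3 lists a group; exact permutation p = 0.4). The median peak held 8 tags in each NTD list and in CON2, against 9 in CON1 and CON3. CON1 and CON3 stood apart from the other 4 lists: their smallest deposited peak had 7 tags rather than 6, and 31.0% and 33.4% of their peaks had 10 tags or more, against 14.4% to 15.0% in the NTD lists and 14.5% in CON2. A minimum of 7 tags was therefore not equally strict in all lists. Of the peaks of a list, 97.9% to 98.98% had a deposited q above 0.05, so that 57 to 60 peaks per NTD list and 59 to 78 per CON list were at or below it. Most peaks were weak, and the values below describe lists of weak peaks. A background was recovered for each peak from its fold and tag count. In each list 83.5% to 88.4% of the peaks had one no more than 1% above the list's commonest value, of 2.11, 2.13 and 2.19 tags in NTD lists and 2.57, 2.13 and 2.69 tags in CON lists, which is called the common background here, and the others had a raised one.

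Gene starts held few of the peaks, and the windows they touched were poorer in G and C than gene starts in general. RefSeq (GRCm38.p6, the assembly of mm10) gave windows from 250 bases before to 50 after 31365 starts on 18 autosomes, and 133 of them (0.424%) were touched by a peak of any brain list by at least 1 base. NTD lists touched 20, 23 and 28 windows and CON lists 15, 32 and 19. Peaks of the same number and lengths spread evenly over these autosomes would touch 34.2, 33.3 and 41.4 windows in NTD and 21.1, 41.1 and 30.2 in CON, so the ratio was 0.651 ± 0.057 in NTD and 0.706 ± 0.074 in CON (mean ± SD, 3 lists a group; exact permutation p = 0.4). The mean G and C content of the touched windows was 49.0%, 43.5% and 43.1% in NTD lists and 42.8%, 45.8% and 47.96% in CON lists, against 54.0% over all windows. All 6 lists lay below the mean of all windows and the groups overlapped. The observed over expected ratio of CG dinucleotides in them averaged 0.258 ± 0.017 in NTD and 0.298 ± 0.030 in CON, against 0.465 over all windows (mean ± SD, 3 lists a group; exact permutation p = 0.2).

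Of the 133 windows, 130 were touched in 1 list only. The remaining 3 are shown here, followed by the protein-coding windows with the lowest and the highest G and C content, which were picked after their values were seen. Each line gives the 250 bases before the start, 5′ to 3′ on the strand of the gene, from the RefSeq table; capitals mark the bases covered by a peak in every list that touched the window.
Gm21190: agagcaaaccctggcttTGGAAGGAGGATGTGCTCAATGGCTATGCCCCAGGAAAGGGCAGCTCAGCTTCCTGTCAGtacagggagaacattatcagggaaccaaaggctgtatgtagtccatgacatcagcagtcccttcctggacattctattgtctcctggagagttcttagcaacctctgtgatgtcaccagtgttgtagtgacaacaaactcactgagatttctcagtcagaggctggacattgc
4931408C20Rik: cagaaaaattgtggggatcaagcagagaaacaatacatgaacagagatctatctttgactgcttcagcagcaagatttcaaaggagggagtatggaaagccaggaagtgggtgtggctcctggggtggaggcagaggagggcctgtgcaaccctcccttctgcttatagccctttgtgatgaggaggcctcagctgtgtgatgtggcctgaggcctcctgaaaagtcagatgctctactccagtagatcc
A530040E14Rik: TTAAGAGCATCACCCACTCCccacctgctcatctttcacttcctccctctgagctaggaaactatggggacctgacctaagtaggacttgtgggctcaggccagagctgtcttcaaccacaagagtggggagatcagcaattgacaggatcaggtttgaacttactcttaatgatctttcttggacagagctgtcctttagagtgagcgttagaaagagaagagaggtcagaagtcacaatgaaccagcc
Olfr24: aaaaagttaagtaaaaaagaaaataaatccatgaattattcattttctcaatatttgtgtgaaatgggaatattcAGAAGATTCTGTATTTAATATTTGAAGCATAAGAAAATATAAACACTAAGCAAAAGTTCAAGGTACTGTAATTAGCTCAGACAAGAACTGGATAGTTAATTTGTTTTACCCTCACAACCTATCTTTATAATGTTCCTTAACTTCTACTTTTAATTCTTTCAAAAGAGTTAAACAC
Garnl3: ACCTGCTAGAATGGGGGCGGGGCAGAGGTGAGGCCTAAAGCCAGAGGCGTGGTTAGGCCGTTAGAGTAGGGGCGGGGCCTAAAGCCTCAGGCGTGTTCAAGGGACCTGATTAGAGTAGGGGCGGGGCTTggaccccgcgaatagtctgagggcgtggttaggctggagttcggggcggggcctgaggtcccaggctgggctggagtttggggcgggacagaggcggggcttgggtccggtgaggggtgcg
Gm21190 (chr5:15529223-15529472, minus strand) was touched in NTD1 and NTD2, by peaks of 8 and 9 tags at the common background. 4931408C20Rik (chr1:26687461-26687710, minus strand) was touched in NTD2 and NTD3, by peaks of 16 and 20 tags at a raised background that reached only the bases after the start, so its line has no capitals. A530040E14Rik (chr1:85105843-85106092, plus strand), a long noncoding RNA gene, was touched in CON1, CON2 and CON3 by peaks of 23, 23 and 31 tags at a raised background, and NTD1 and NTD3 had peaks of 23 and 24 tags just before the window, so a site near this start was held in 5 of 6 lists. Olfr24 (chr9:18755634-18755883, minus strand), an olfactory receptor gene, had 29.3% G and C in its whole window and a peak in 1 NTD list. Garnl3 (chr2:33130620-33130869, minus strand), a protein-coding gene, had 68.7% and a peak in NTD1. The letters GATC, which bacterial Dam methylase modifies and which read the same on both strands, were in 30%, 39.1% and 50% of the windows touched in NTD lists and in 46.7%, 46.9% and 57.9% of those touched in CON lists, against 47.7% of all windows.

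Over all peaks of at least 7 tags the shares of the authors' classes overlapped between the groups. They call a peak promoter within 2 kb of a transcription start (TSS) and upstream from there to 20 kb before it, judged from the deposited distances, and otherwise exon, intron or intergenic. Promoter peaks made up 6.37%, 6.41% and 6.41% of NTD lists and 6.31%, 6.40% and 7.36% of CON lists. The NTD values lay inside the CON range. Exon peaks were 1.48% ± 0.18 in NTD and 1.54% ± 0.11 in CON (mean ± SD, 3 lists a group; exact permutation p = 0.7). Intron peaks were 26.2%, 27.0% and 27.0% in NTD lists against 23.9%, 26.9% and 25.9% in CON lists, where CON1 was lowest and CON2 lay within the NTD range. Upstream peaks averaged 17.9% ± 0.19 in NTD and 18.2% ± 0.22 in CON, and intergenic peaks 47.5% ± 0.75 in NTD and 48.01% ± 1.5 in CON (mean ± SD, 3 lists a group). Over the 5 classes the exact permutation p was 0.2 to 0.9, and adjusted over the 14 measures compared between the groups it was 0.4 to 0.9 (Benjamini-Hochberg). Intergenic shares did not overlap under 3 other settings, with 44.4% in NTD and 47.2% in CON at a minimum of 10 tags, 46.6% in NTD and 48.2% in CON at p of at most 0.001, and 46.998% in NTD and 48.5% in CON at equal list length (exact permutation p = 0.1 each). Promoter shares did not overlap at a minimum of 10 tags, with 7.34% in NTD and 8.17% in CON. They did not at a raised background either, with 7.30% in NTD and 9.65% in CON (exact permutation p = 0.1). At the common background they overlapped, with 6.26% in NTD and 6.19% in CON. Upstream shares did not overlap with no tag minimum, with 17.6% in NTD and 18.2% in CON.

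**Figure D1:**
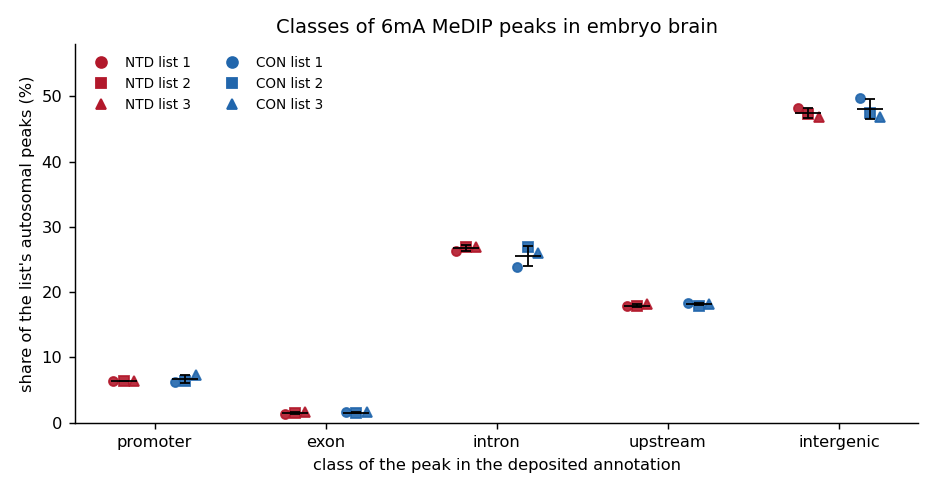
Share of autosomal peaks in each class of the deposited annotation (vertical axis, percent), with the 3 NTD lists (red) left of the 3 CON lists (blue); black bars are mean and SD. The groups overlap in all 5 classes, with intergenic peaks at 47.5% in NTD and 48.01% in CON.

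Peaks lay in genes about as often as the sequence itself does. Positions taken every 10 kb on 18 autosomes fell inside a protein-coding gene in 41.0% of cases. Peak midpoints did so in 41.8%, 40.7% and 40.5% of cases in NTD lists and in 39.4%, 41.7% and 42.0% in CON lists (41.0% ± 0.68 and 41.0% ± 1.4, mean ± SD of 3 lists; exact permutation p = 1). Within 2 kb of a protein-coding start lay 4.18% ± 0.16 of NTD peaks and 4.22% ± 0.44 of CON peaks (mean ± SD, 3 lists a group), against 4.46% of the positions. Beyond 100 kb from one lay 27.5% ± 1.0 of NTD peaks and 26.1% ± 0.80 of CON peaks, against 31.0% of the positions. All 6 lists, at 25.3% to 28.5%, were lower there than the positions. The median distance to such a start was 39.1 ± 0.91 kb in NTD and 36.5 ± 1.1 kb in CON (mean ± SD, 3 lists a group). The groups did not overlap in it (exact permutation p = 0.1), and the median of the positions was 43.3 kb.

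The median distance from a peak to its TSS in the authors' annotation was 26.9, 25.9 and 27.0 kb in NTD lists, against 24.8, 25.7 and 23.1 kb in CON lists. The groups did not overlap, but NTD2 and CON2 nearly met. The means were 26.6 ± 0.64 kb in NTD and 24.5 ± 1.3 kb in CON (mean ± SD, 3 lists a group; exact permutation p = 0.1, adjusted 0.4). Peaks between 2 and 20 kb from a start also differed without overlap: they were 36.5% ± 0.63 of NTD lists and 38.4% ± 1.0 of CON lists (mean ± SD, 3 lists a group; exact permutation p = 0.1). Those lying downstream of the start were 18.1%, 19.3% and 18.2% in NTD lists and 20.6%, 19.3% and 20.8% in CON lists. Distance moved with the number of tags, in which CON1 and CON3 differ, and the part of tags in the difference between groups was not tested. Among peaks of 7 tags the median distance was 31.1, 28.6 and 28.3 kb in NTD and 26.3, 27.5 and 23.8 kb in CON. At this equal tag count the groups did not overlap (exact permutation p = 0.1). Among peaks of 9 tags the median was 25.0 ± 0.97 kb in NTD and 25.4 ± 1.9 kb in CON. From 13 tags on it was 13.5 ± 0.92 kb in NTD and 15.1 ± 1.3 kb in CON (mean ± SD, 3 lists a group). Both means had the opposite order, but the groups overlapped (exact permutation p = 0.9 and 0.2). With a minimum of 10 tags the difference turned to -1.40 kb and the groups overlapped (exact permutation p = 0.3). At the common background they overlapped too, with 27.8 ± 0.49 kb in NTD and 26.6 ± 1.9 kb in CON (mean ± SD of 3 lists, exact permutation p = 0.4). At a raised background they did not, with 19.7 ± 1.3 kb in NTD and 17.1 ± 1.4 kb in CON (mean ± SD of 3 lists, exact permutation p = 0.1). Against CON2 alone the difference over all peaks was 0.858 kb.

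Peaks were shorter in all 3 NTD lists than in any CON list. The median was 244, 250 and 245 bp in NTD lists, against 260, 263 and 261 bp in CON lists. The difference was -15 bp, with means of 246 ± 3.2 bp in NTD and 261 ± 1.5 bp in CON (mean ± SD, 3 lists a group; exact permutation p = 0.1, the smallest possible; adjusted 0.4). The shortest peaks differed by nearly as much: the narrowest peak of a list was 205, 208 and 205 bp in NTD and 220, 217 and 221 bp in CON, a difference of -13.3 bp. The tenth percentile was 212 ± 2.1 bp in NTD and 225 ± 1.7 bp in CON, and the ninetieth 358 ± 5.5 bp in NTD and 374 ± 6.2 bp in CON (mean ± SD, 3 lists a group). The shift was thus about as large at the narrow end as at the median. A narrowest length that differs by list may carry a setting of the peak caller, such as a fragment size estimated for each list, and its part in the shift of the median was not tested. DNA was sheared to 100 to 300 bp per the labels, and fragment sizes per library were not analysed here.

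**Figure D2:**
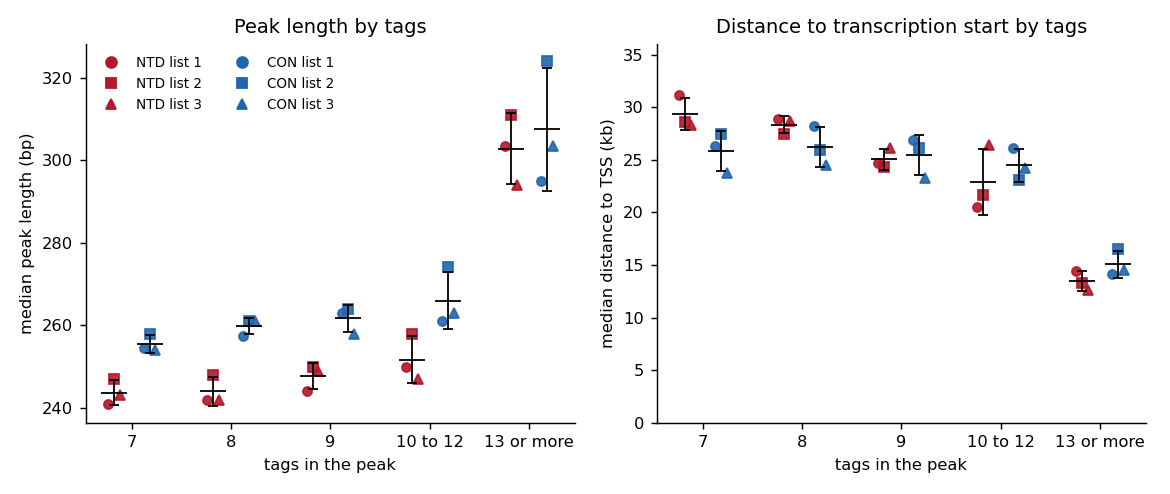
Median peak length (left, bp; the axis does not start at 0) and median distance to the TSS (right, kb) by the number of tags in the peak, NTD lists (red) left of CON lists (blue), with mean and SD in black. NTD peaks are shorter up to 12 tags without overlap, while the order of the mean distances turns between 8 and 9 tags. The distances of the groups overlap from 8 tags on.

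The shift held at equal tag counts. Among peaks of 7 tags the median length was 241, 247 and 243 bp in NTD lists and 254.5, 258 and 254 bp in CON lists. The groups also stayed apart at 8 tags, at 9 tags and at 10 to 12 tags (means of 252 ± 5.7 bp in NTD and 266 ± 7.0 bp in CON, mean ± SD of 3 lists). From 13 tags on they overlapped (303 ± 8.5 bp in NTD and 307.5 ± 15 bp in CON, mean ± SD of 3 lists; exact permutation p = 0.7). CON2, whose tag counts resemble those of NTD lists, had the longest median of all. Peaks of 500 bp or more were 1.52%, 1.71% and 1.30% of NTD lists and 1.88%, 2.10% and 1.68% of CON lists, where NTD2 lay above CON3 (exact permutation p = 0.2). Of the 14 measures, peak length and TSS distance were the 2 whose groups did not overlap, and no adjusted p was under 0.4.

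The genes to which peaks were assigned had a median length of 29.2, 28.5 and 31.6 kb in NTD lists and 27.0, 28.5 and 26.7 kb in CON lists, with NTD2 and CON2 nearly equal (exact permutation p = 0.2). The groups did not overlap in 8 of 15 alternatives, among them the common background (30.9 kb in NTD and 28.02 kb in CON), equal list length (29.9 kb in NTD and 26.7 kb in CON) and p of at most 0.001 (29.4 kb in NTD and 26.3 kb in CON), each with an exact permutation p of 0.1, and the order turned at a minimum of 10 tags (23.8 kb in NTD and 24.8 kb in CON). Peaks were about as dense in short genes as in long ones. Relative to the list's mean over the autosomes, density was 0.935 ± 0.076 in NTD and 1.01 ± 0.12 in CON in the 7342 protein-coding genes under 10 kb. In the 216 genes over 500 kb it was 0.916 ± 0.051 in NTD and 0.888 ± 0.055 in CON (mean ± SD, 3 lists a group; exact permutation p = 0.4 and 0.5). The share of genes with a peak went with their length. Of the genes over 500 kb, 72.2%, 74.1% and 78.2% held a peak in NTD lists and 61.6%, 82.4% and 64.8% in CON lists, against 0.504% to 1.02% of the genes under 10 kb in any list.

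Along the autosomes the mean distance to the nearest peak was near that of random placement, and peaks at a raised background were unevenly spread. Random placement, with every position from 3 Mb on equally likely, is called an even spread here. The mean distance to the nearest peak, over that of an even spread, was 1.00, 1.02 and 0.988 in NTD lists and 0.983, 1.01 and 1.00 in CON lists. Of gaps between neighbours, 3.85%, 3.91% and 3.78% in NTD lists were 1 to 10 kb. An even spread gives 1.73%, 1.66% and 2.08%. In CON lists such gaps were 4.23%, 3.70% and 3.99%, where it gives 1.04%, 1.99% and 1.48%. The excess variance of peak counts in 1 Mb windows, which is 0 for an even spread, was 0.546, 0.570 and 0.370 in NTD lists and 1.27, 0.364 and 0.760 in CON lists. CON1 and CON3, the lists with more tags per peak, were highest and CON2 was lowest (exact permutation p = 0.4). Among peaks at the common background it was 0.056 to 0.100 in NTD and 0.033 to 0.165 in CON. Among those at a raised background it was 19.4 to 23.0 in NTD and 17.4 to 36.1 in CON. Peaks within 10 kb of another were 7.41%, 7.44% and 7.30% of NTD lists and 8.08%, 7.13% and 7.74% of CON lists, where CON1 and CON3 were again highest.

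**Figure D3:**
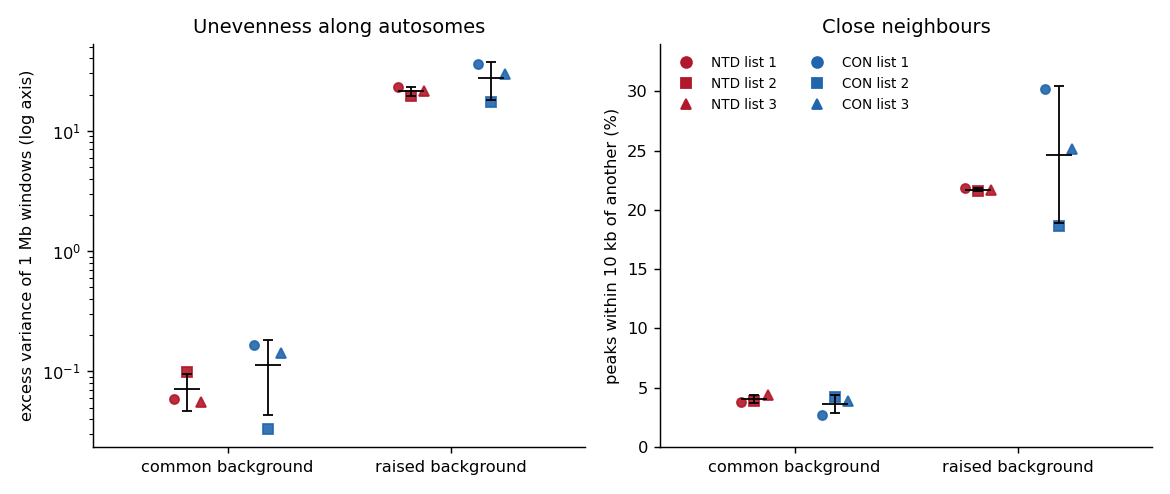
Excess variance of peak counts in 1 Mb windows (left, log axis) and share of peaks within 10 kb of another (right, percent), for peaks at the common and at a raised background, NTD lists (red) left of CON lists (blue), mean and SD in black. Raised-background peaks have values of 17.4 to 36.1 against 0.033 to 0.165, in both groups.

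The fullest 1 Mb windows were full in both groups, and in the 3 fullest of them most peaks had a raised background. The next fullest, on chromosome 5, went the other way, with 89 of its 133 peaks at the common background. So were 47 of 79 in a less full window of that chromosome, but only 15 of 97 in the fullest window of chromosome 9. Chromosome 1 from 85 to 86 Mb held 38, 24 and 33 peaks in NTD lists and 34, 39 and 30 in CON lists, and only 13 of these 198 were at the common background. Chromosome 4 from 147 to 148 Mb held 36, 37 and 32 peaks in NTD lists and 29, 23 and 31 in CON lists. Each NTD list held more there than any CON list, but as shares of the list, at 0.571% to 0.832% in NTD and 0.431% to 1.051% in CON, the groups overlapped. Chromosome 8 from 20 to 21 Mb, with the pseudogene Gm21811, held 24, 31 and 31 peaks in NTD lists and 25, 32 and 36 in CON lists. The first assembled megabase of the autosomes, next to the centromere, held 1.34%, 1.42% and 1.28% of the peaks in NTD lists, against 1.88%, 1.50% and 1.603% in CON lists, and it makes up 0.790% of the sequence. The groups did not overlap (1.35% ± 0.066 and 1.66% ± 0.20, mean ± SD of 3 lists; exact permutation p = 0.1), and NTD lists had the smaller share. Without the 10 fullest windows the excess variance was 0.084 ± 0.011 in NTD and 0.158 ± 0.118 in CON (mean ± SD, 3 lists a group), with CON1 highest at 0.274.

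Few whole autosomes and 10 Mb windows separated the groups. Shares that do not differ would separate at a rate of up to 0.1, the smallest p of the exact permutation test. Of 19 autosomes, 2 (10.5%) had shares that did not overlap, close to that rate. Chromosome 17 held 3.42%, 3.78% and 3.59% of the peaks in NTD lists, against 4.39%, 3.82% and 4.45% in CON lists, and chromosome 18 held 3.49%, 3.22% and 3.84% of the peaks in NTD lists, against 3.04%, 2.98% and 2.95% in CON lists. Both had an exact permutation p of 0.1, adjusted 0.76. Of 245 windows of 10 Mb, 17 (6.94%) did not overlap, 8 with larger (3.27%) and 9 with smaller shares in NTD (3.67%), with an adjusted p of 0.961. Among these 17, chromosome 19 from 10 to 20 Mb had the largest difference, with 0.477%, 0.630% and 0.500% of NTD peaks and 0.290%, 0.337% and 0.331% of CON peaks. Its most peaked gene was Pcsk5, a proprotein convertase, with 0, 0 and 6 peaks in NTD lists and 1, 1 and 1 in CON lists. Chromosome 13 from 20 to 30 Mb followed among the 17, with 0.412%, 0.585% and 0.500% of NTD peaks and 0.362%, 0.300% and 0.255% of CON peaks; there Cdkal1, a tRNA-modifying enzyme, had 1, 3 and 3 peaks in NTD lists and 2, 3 and 0 in CON lists. In the other direction, chromosome 13 from 40 to 50 Mb held 0.378% ± 0.052 of the peaks in NTD lists, against 0.527% ± 0.057 in CON lists (mean ± SD, 3 lists a group). Chromosome 7 from 90 to 100 Mb held 0.397% ± 0.058 in NTD lists and 0.517% ± 0.055 in CON lists (mean ± SD, 3 lists a group). In that window Dlg2, a scaffold of the postsynaptic density, had 1, 1 and 1 peaks in NTD lists and 6, 10 and 1 in CON lists. The next most peaked genes there leaned the other way. Gm32647 had 4, 3 and 3 in NTD lists and 3, 3 and 2 in CON lists. Tenm4 had 3, 3 and 5 in NTD lists and 2, 0 and 0 in CON lists. Across the 245 windows, Pearson's r between the shares of 2 lists averaged 0.648 within NTD (3 pairs), 0.659 within CON (3 pairs) and 0.654 between the groups (9 pairs), a description over windows that share the same assembly and the same full megabases.

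**Figure D4:**
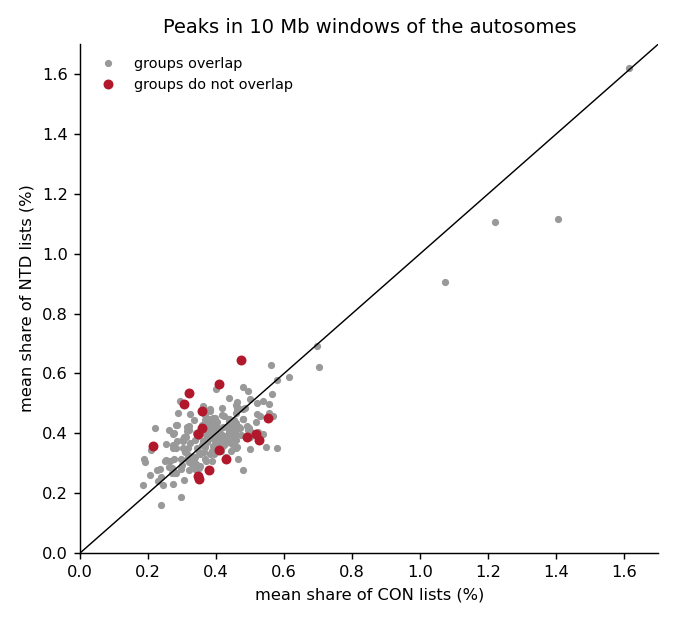
Mean share of a list's peaks in each of 245 windows of 10 Mb, CON lists on the horizontal and NTD lists on the vertical axis (percent); the line marks equality and red points are the 17 windows whose lists do not overlap between groups. Windows with the largest shares lie near the line or below it, and the red points lie among the many windows of ordinary share.

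By the authors' assignment 12751 genes had a peak in any brain list, and 61.8% of them in 1 list only. NTD lists alone held 78 genes in all 3 (0.612%), CON lists alone held 34 (0.267%), and 117 genes had a peak in all 6. Restricted to the common background the counts were 68 in NTD, 34 in CON and 55 in all 6. The order did not hold throughout. At equal list length there were 38 in NTD and 33 in CON, with at least 10 tags 4 in NTD and 9 in CON, without CON1 108 in NTD and 235 in CON, and without CON3 127 in NTD and 178 in CON. With a CON list left out, a gene had to be in fewer CON lists to count there. By number of peaks, 97 genes (0.761%) were higher and 42 (0.329%) lower in NTD without overlap. No p is given per gene.

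The 10 genes with the largest differences towards NTD are given here, and most genes over 500 kb held a peak in each of the 6 lists taken alone. Cntnap2, a neurexin-family protein that gathers potassium channels along axons (chr6:45060061-47301393, 2241 kb), had 9, 8 and 5 peaks in NTD lists and 4, 4 and 2 in CON lists. Gpc6, a glypican of the cell surface (1055 kb), had 6, 4 and 7 in NTD and 2, 2 and 2 in CON. Nkain2, which binds the sodium pump, had 2, 7 and 2 in NTD and 0, 0 and 1 in CON. Atrnl1, an attractin-like membrane protein on chromosome 19 (522 kb), had 4, 3 and 3 peaks in NTD lists and none in any CON list. Tenm4, a teneurin adhesion protein, had 3, 3 and 5 in NTD and 2, 0 and 0 in CON. At the common background the groups met for Cntnap2, with 7, 7 and 4 peaks in NTD lists and 2, 4 and 2 in CON lists, and for Nkain2, with 2, 7 and 1 in NTD lists and 0, 0 and 1 in CON lists. Gpc6, Atrnl1 and Tenm4 stayed without overlap there, Atrnl1 with 3, 3 and 3 in NTD lists and none in CON lists. Most of their NTD peaks were at the common background, 16 of 17 for Gpc6, 9 of 10 for Atrnl1 and 10 of 11 for Tenm4. The genes were picked by counts that include these peaks, so this is no separate support. The gene with the largest difference, the short noncoding Gm40904 on chromosome 13, was of another kind: its 6, 8 and 5 NTD peaks and 0, 1 and 3 CON peaks were all at a raised background. The megabase around it, from 12 to 13 Mb, was picked after its values were seen and held 14, 11 and 12 peaks in NTD lists and 2, 5 and 6 in CON lists, of which 8 of 50 were at the common background. Rex2, on chromosome 4, had 5, 4 and 6 peaks in NTD lists, against 2, 3 and 1 in CON lists, with 5 of 15 NTD peaks at the common background. Gm13165, a noncoding gene of the same chromosome, had 3, 5 and 3 in NTD and 0, 2 and 0 in CON, with 1 of 11 NTD peaks there. LOC102638878 and Gm17215 completed the 10, with 12 of 14 and 10 of 12 NTD peaks at the common background. Counted at that background alone, the groups also met for Gm17215, Rex2 and Gm13165, and they stayed without overlap for LOC102638878.

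In the other direction Cntn5, a contactin adhesion protein of neurons on chromosome 9 (1271 kb), had no peak in any NTD list and 2, 2 and 5 in CON lists, 8 of these 9 at the common background. Ncor1, a corepressor of nuclear receptors, had 1, 0 and 0 peaks in NTD lists and 3, 2 and 2 in CON lists, of which 1 was at the common background. Ccl28, a chemokine, had 1, 1 and 0 in NTD and 2, 3 and 3 in CON, all at a raised background. Gm36798 had none in NTD and 2, 4 and 2 in CON, also all raised. LOC102640399 had the largest difference, with 3, 1 and 4 in NTD and 9, 5 and 6 in CON, where 1 CON peak was at the common background. Gm12381 had 0, 1 and 0 in NTD and 2, 4 and 2 in CON, all at the common background. Gm8579, LOC108167568, Gm34912 and Gm35912 made up the remainder.

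The genes with the most peaks held them in both groups. Several belong to families with near copies in the genome, where reads can be hard to place. The part of this in their peak counts was not tested. Mir101c, a microRNA gene at 3 Mb of chromosome 9, had 14, 13 and 14 assigned peaks in NTD lists and 11, 14 and 10 in CON lists, of which 2 of 76 were at the common background. Sfi1, which encodes a centrosome protein, had 7, 3 and 6 in NTD and 4, 5 and 5 in CON, none at the common background. Obox2, an oocyte homeobox gene, had 7, 7 and 5 in NTD and 10, 6 and 5 in CON, with 25 of 40 at the common background. Sorcs1, a sorting receptor of neurons, had 4, 6 and 5 in NTD and 0, 11 and 5 in CON, so that 2 lists of the same group held both its lowest and its highest count.

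Promoters and exons rarely recurred between lists. Of 1715 genes with a promoter peak, 94.0% had it in 1 list. None had it in each NTD list but in no CON list (0%), and 2 had it in each CON list but in no NTD list (0.117%), LOC108167568 and Gm15433. In all 6 lists it was found at Mir101c, at the noncoding gene 2700054A10Rik and at Usp17le, a deubiquitinase gene. Usp17le was the one with ordinary depth, at 11, 11 and 11 tags in NTD lists and 13, 8 and 15 tags in CON lists, 5 of 6 at the common background. Mir101c had 2358 to 2509 tags in NTD lists and 2630 to 3209 in CON lists at a fold of 1.59 to 1.75, and 2700054A10Rik had 306, 262 and 244 tags in NTD lists and 307, 293 and 386 in CON lists. Sfi1 and A530040E14Rik had a promoter peak in 5 lists each. Of 381 genes with an exon peak, 96.6% had it in 1 list, and none had it in all lists of 1 group only (0%). LOC101055758 and Gm15433 had one in 4 lists each, and Slc30a4, a zinc transporter, in NTD3, CON1 and CON3 with 18, 26 and 24 tags.

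Of 12 lists of genes for neural and metabolic functions, 1 (8.33%) had shares of genes with a peak that did not overlap between the groups, and 9 had a larger mean in NTD. Gene lists without any difference would separate at a rate of up to 0.1. Over all 20665 autosomal protein-coding genes the share was 10.0%, 9.51% and 11.6% in NTD lists and 6.21%, 11.6% and 8.85% in CON lists (exact permutation p = 0.4). The list that did not overlap was glycolysis and the tricarboxylic acid cycle. Of its 41 genes 7, 5 and 4 had a peak in NTD lists (17.1%, 12.2% and 9.76%) and 2, 3 and 1 in CON lists (4.88%, 7.32% and 2.44%), with an exact permutation p of 0.1, adjusted over the 12 lists 1. It rested on 17 peaks in NTD and 6 in CON, and no member had counts without overlap. Idh2, a mitochondrial isocitrate dehydrogenase, had 1, 0 and 2 peaks in NTD lists and none in CON lists. Pfkp, a phosphofructokinase, had 1, 1 and 0 in NTD and 0, 1 and 0 in CON. Sucla2, a subunit of succinyl-CoA synthetase, had 1, 1 and 0 in NTD and 1, 0 and 0 in CON. The groups of this list overlapped with promoter, exon and intron peaks alone, with p at most 0.001, and at equal list length.

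**Figure D5:**
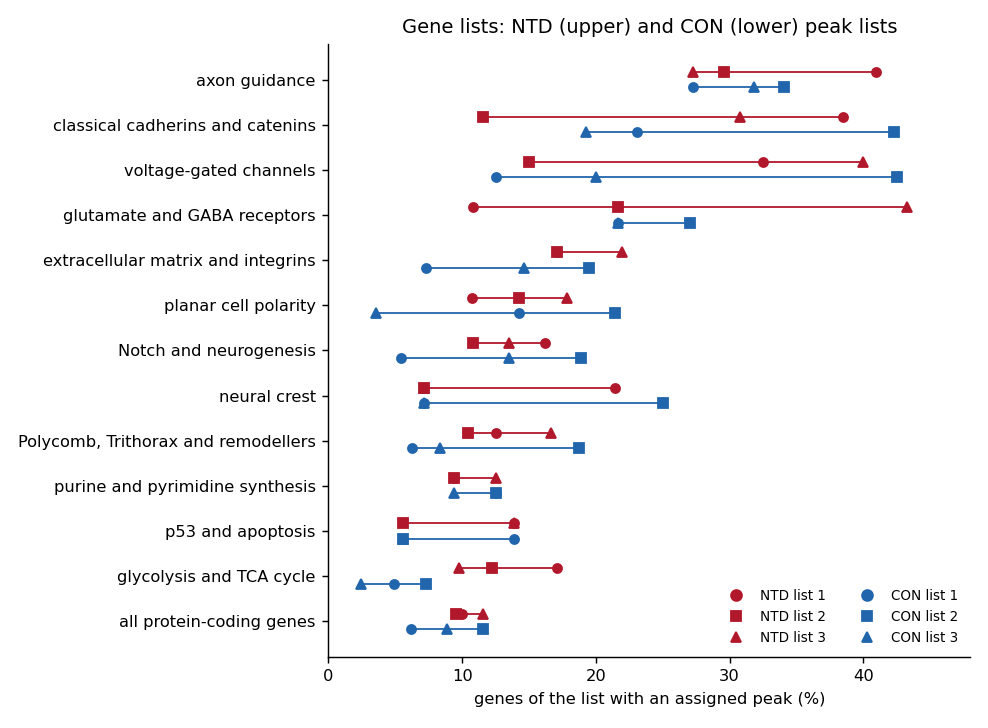
Share of genes with an assigned peak (horizontal axis, percent) for 12 gene lists and all protein-coding genes, NTD lists (red) above CON lists (blue), one symbol per peak list with a line over the range. The ranges overlap in all but glycolysis and the TCA cycle, where NTD spans 9.76% to 17.1% and CON 2.44% to 7.32%.

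Lists that bear on neural tube closure overlapped between the groups, each with an adjusted p of 1. Of 28 autosomal planar cell polarity genes, which orient cells in the closing plate, 3, 4 and 5 had a peak in NTD lists and 4, 6 and 1 in CON lists, and 14 had none in any list. Daam1, a formin of that pathway, had 1, 1 and 1 in NTD and 0, 1 and 0 in CON, Celsr1 0, 1 and 1 in NTD and 1, 0 and 0 in CON, and the ligand gene Wnt5a 1, 0 and 0 in NTD and 2, 1 and 0 in CON. No member of this list had counts that did not overlap. Of 28 neural crest genes 6, 2 and 2 had a peak in NTD lists and 2, 7 and 2 in CON lists. Mitf, a pigment cell factor, had 0, 4 and 0 in NTD and 1, 1 and 2 in CON. Pax3, whose loss in mice gives neural tube defects, had 1, 0 and 0 in NTD and 1, 0 and 0 in CON. Of 37 Notch and neurogenesis genes 6, 4 and 5 had a peak in NTD and 2, 7 and 5 in CON, among them Rbpj, the DNA-binding partner of Notch, with 1, 2 and 0 peaks in NTD lists, against 0, 1 and 1 in CON lists. Of 36 p53 and apoptosis genes 5, 2 and 5 had one in NTD and 5, 2 and 2 in CON. Sesn1, a stress-induced p53 target, had 1, 0 and 1 peaks in NTD lists, against 0, 0 and 2 in CON lists.

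Purine and pyrimidine synthesis, the use of folate that methotrexate limits, had 3, 3 and 4 of 32 genes with a peak in NTD lists and 4, 4 and 3 in CON lists. Dut, which clears dUTP, had 1, 0 and 2 peaks in NTD and none in CON. Atic, of purine synthesis, had none in NTD and 0, 0 and 2 in CON. Of 48 Polycomb, Trithorax and remodeller genes 6, 5 and 8 had a peak in NTD and 3, 9 and 4 in CON. Summed over the 3 lists of a group, their peaks numbered 31 in NTD and 18 in CON, while all autosomal peaks averaged 4889 in NTD and 4009 in CON. The shares of these genes with a peak overlapped between the groups (exact permutation p = 0.7), and CON2 was highest at 18.75%. The histone deacetylase genes Hdac9 (2, 3 and 0 peaks in NTD) and Hdac4 (2, 0 and 2 in NTD) had none in CON lists, and the remodeller gene Chd2 had 0, 0 and 4 in NTD and 0, 0 and 1 in CON.

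The 4 lists with the largest shares in both groups were axon guidance, voltage-gated channels, glutamate and GABA receptors, and cadherins and catenins. Of 44 axon guidance genes 18, 13 and 12 had a peak in NTD lists and 12, 15 and 14 in CON lists (32.6% ± 7.3 and 31.1% ± 3.5, mean ± SD of 3 lists; exact permutation p = 0.9), and their median length was 166 kb against 17.5 kb over all protein-coding genes. Robo1, a receptor for Slit proteins, had 1, 6 and 0 peaks in NTD lists, against 5, 3 and 0 in CON lists, and its ligand gene Slit2 had 2, 0 and 4 in NTD and 3, 3 and 1 in CON. Epha6, an ephrin receptor gene, had 4, 1 and 0 in NTD and 2, 5 and 3 in CON. Of 37 glutamate and GABA receptor genes 4, 8 and 16 had a peak in NTD and 8, 10 and 8 in CON. The kainate receptor gene Grik2 had one in every list, with 4, 2 and 1 in NTD and 4, 3 and 3 in CON. NTD lists thus held both the lowest and the highest of the 6 shares of these receptor genes. Of 40 voltage-gated channel genes 13, 6 and 16 had a peak in NTD and 5, 17 and 8 in CON. Cacna2d1, an auxiliary calcium channel subunit, was the only member of the 12 lists with counts that did not overlap, at 1, 3 and 1 in NTD and 0, 0 and 0 in CON, and it was named after its values were seen. Of 26 cadherin and catenin genes 10, 3 and 8 had a peak in NTD and 6, 11 and 5 in CON. Cdh12 had 1, 2 and 2 in NTD and 2, 2 and 1 in CON, and Ctnna2, an alpha-catenin of neurons, 2, 0 and 0 in NTD and 3, 4 and 1 in CON. Of 41 extracellular matrix and integrin genes 7, 7 and 9 had a peak in NTD and 3, 8 and 6 in CON. Tenascin-R (Tnr) had 0, 2 and 2 peaks in NTD lists, against 0, 1 and 1 in CON lists.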

How the data were processed

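Sheared DNA of embryo brains was immunoprecipitated with a 6mA kit and sequenced beside input, of which about 10% of the ligated DNA was kept, per the labels' protocols. The submitters' processing notes list cutadapt 1.9.2, Bowtie2 2.2.4 and mm10. For the caller of the peaks a name was not given in the sources used here. Per the file headers, each list was called by the authors against input 1 of its group, and peak names carry 1e-2, matching the smallest −log10 p-value deposited. Control was taken as CON, and Case, the only other brain group, as NTD. The tag count per peak was deposited as a whole number. The deposited −log10 p and q values and the fold, a ratio of the immunoprecipitate over background per the file headers, are the authors' own. The p and q values served for thresholds and for counts of peaks by q. The fold served to order peaks inside a list and to recover their background. Library totals were not used here; the depth shown is that in peaks, and it carries no counting interval.

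Rows were reduced to 1 per peak with the nearest transcript. The background of a peak was recovered as its tag count plus 1, over its fold, minus 1, and called common up to 1% above the list's commonest value. Symbols were matched to RefSeq GRCm38.p6 genes for 91.6% to 93.9% of the peaks of a list. Even spread counts the autosomes from 3 Mb on. Group means were compared with a two-sided exact permutation test over lists, adjusted by Benjamini-Hochberg within each family (14 measures, 19 autosomes, 245 windows, 12 gene lists). Genes were named by rule: up to 4 members per gene list with the most peaks; 10 genes per direction with the largest difference without overlap; 5 genes per class with promoter or exon peaks in the most lists; 5 windows per direction, with their 3 most peaked genes; and 10 genes with the most peaks. Any other gene is marked as chosen after seeing its values. Members, lists and tests were chosen with earlier results of these data known. Alternatives were no tag minimum or 10, p at most 0.001, lists of equal length, the common background alone, other window and distance limits, the first assembled megabase left out, each list left out, and same-numbered lists paired; leaving out the 10 fullest megabases, or CON1 and CON3, was added after seeing the data. The functions were tested on simulated lists. Calculations used Python 3.11.15, numpy 2.4.6 and pandas 2.3.3, and figures matplotlib 3.10.9.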

Additional observations from a re-analysis of the deposited data

How the results depend on the processing

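Of 283 recomputed values of 19 results, 213 kept the direction of the difference or, for counts, stayed within 1.5 times. Of the others, 31 turned direction and 39 counts moved by more. The 213 include the setting with same-numbered lists paired, in which no difference could turn. A kept direction is not a kept size: against CON2 alone TSS distance differed by 0.858 kb, and without CON1 the number of peaks differed by 255 and excess variance by -0.067; the cause was not tested beyond fewer peaks or lists in a setting. Peak length (-16.8 to -13.8 bp, the difference of NTD and CON medians) and the share of peaks of 500 bp or more never turned. With at least 10 tags the differences of NTD and CON means were -257 autosomal peaks, 0.283 percentage points for exons, 1.66 for upstream, -1.40 kb to the TSS, -0.689 points beyond 100 kb, -1.02 kb of gene length, 3.56 in excess variance and 1.02 points within 10 kb, and there were 4 autosomes and 29 windows without overlap, 4 genes in NTD lists alone and 9 in CON lists alone. With no tag minimum 26 windows and 129 NTD genes were counted. Both these 26 windows and the 29 before them are out of 245. With p at most 0.001 upstream differed by 0.416 points and the nearest neighbour ratio by -0.015, with 5 autosomes, 0 gene lists, 41 NTD genes and 17 CON genes. At equal list length exon differed by 0.036 points, upstream by 0.169 and the ratio by -0.0013, with 0 gene lists, 38 NTD genes and 33 CON genes. At the common background promoter differed by 0.068 points, exon by 0.015 and peaks within 10 kb by 0.423. Without the first assembled megabase the ratio differed by -0.00067. Against CON2 alone, chosen after seeing the data, the differences were -451 peaks, 0.058 points for exons, -0.130 for introns, 0.0087 for upstream, 0.073 for intergenic, -0.0041 in the ratio, 0.131 in excess variance and 0.248 points within 10 kb. Promoter, exon and intron peaks alone gave 0 gene lists, 25 NTD genes and 7 CON genes. Windows of 5 Mb gave 54 without overlap, out of more windows than the 245 of 10 Mb. A distance of 100 kb gave 4.73 points for peaks near another. With each list left out, promoter ran from -0.486 to 0.039 points, exon from -0.152 to 0.028, intergenic from -1.12 to 0.321 and the ratio from -0.0039 to 0.010; autosomes without overlap from 4 to 5, windows from 40 to 58, gene lists from 1 to 3, NTD genes from 108 to 354 and CON genes from 51 to 235, with more CON than NTD genes without CON1 or CON3. With fewer lists, groups that do not differ separate more often. The counts with a list left out can therefore not be set against those of all lists, and they show no stronger separation. Without CON3 promoter was higher in NTD, and without CON1 intergenic was. The lists share only a number: deviations of same-numbered lists over 245 windows correlated at 0.036, -0.010 and -0.006. In the replicate block by that number, peak length differed by -15 bp and TSS distance by 2.06 kb, the same as without pairing. Pairing leaves the difference of the means unchanged, so the block is no check of direction. Its exact sign-flip permutation test has a smallest p of 0.25, which both measures reached (exact sign-flip permutation p = 0.25 each). That test could therefore change no call. Most peaks have 7 to 9 tags, which limits what any single peak can show.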
